A study of Mus musculus with 8 samples.

Results

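The genes described here are 40 genes of glycolysis and of the response to low oxygen, measured by RNA sequencing in embryonic mouse lung at E13.5. They were taken by symbol from a deposited table of 55401 genes, and all 40 were found: 2 transporters, 18 glycolytic enzymes, 4 regulators of the flux through the pathway, 2 subunits of the hypoxia-inducible factors (HIF), 2 oxygen sensors and 12 HIF target genes. The study had 8 libraries in 2 groups of 4. The mutant lungs were labelled Tbx4tetOcre and MyrfE6, and the reference lungs cre control. All 8 were labelled as E13.5 lung of Mus musculus. The labels do not explain the E6 allele, do not say in which cells the Cre acted or whether the controls carried the same transgenes, and give neither the sex nor the number of embryos per library nor the litters, so the p-values below measure only the spread between these libraries.

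Glycolysis splits glucose into pyruvate in the cytosol and yields ATP without oxygen, and lactate dehydrogenase then turns pyruvate into lactate, which leaves the cell. The embryo develops at low oxygen, where the HIF-alpha subunits escape the prolyl hydroxylases that mark them for destruction, pair with ARNT and bind DNA at the core sequence RCGTG, in which R is A or G. Many glycolytic enzyme genes are themselves HIF targets, together with genes for blood vessel growth, mitophagy and collagen hydroxylation. The HIF proteins are controlled mostly by their stability, which counts of RNA do not show.

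Promoter stretches of 6 members are shown because they hold, or lack, the core ACGTG near the start of the genes that varied between libraries. They are the 250 bases before a RefSeq transcription start on GRCm38.p6, written 5′ to 3′ on the gene's strand, and capitals mark ACGTG on either strand. The 6 were chosen after the values were seen: the first 5 varied between libraries and Ldhb was among the steadier enzymes.
Slc16a3, chr11:120948817-120949066, plus strand: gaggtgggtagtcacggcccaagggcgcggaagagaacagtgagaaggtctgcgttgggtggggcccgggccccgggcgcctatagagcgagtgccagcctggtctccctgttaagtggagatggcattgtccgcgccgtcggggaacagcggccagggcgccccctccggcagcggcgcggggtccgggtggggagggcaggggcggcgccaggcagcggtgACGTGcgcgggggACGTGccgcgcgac
Ldha, chr7:46845554-46845803, plus strand: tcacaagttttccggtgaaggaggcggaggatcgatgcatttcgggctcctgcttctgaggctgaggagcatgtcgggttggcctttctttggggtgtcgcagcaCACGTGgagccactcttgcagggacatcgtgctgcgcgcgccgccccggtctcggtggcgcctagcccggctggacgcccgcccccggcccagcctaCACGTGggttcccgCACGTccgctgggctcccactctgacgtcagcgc
Pgk1, chrX:106186850-106187099, plus strand: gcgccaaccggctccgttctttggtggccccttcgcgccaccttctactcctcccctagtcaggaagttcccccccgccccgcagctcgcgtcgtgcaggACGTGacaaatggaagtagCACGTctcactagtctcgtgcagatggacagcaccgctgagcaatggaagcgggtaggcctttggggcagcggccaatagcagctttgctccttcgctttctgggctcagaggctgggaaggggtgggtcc
Egln3, chr12:54203875-54204124, minus strand: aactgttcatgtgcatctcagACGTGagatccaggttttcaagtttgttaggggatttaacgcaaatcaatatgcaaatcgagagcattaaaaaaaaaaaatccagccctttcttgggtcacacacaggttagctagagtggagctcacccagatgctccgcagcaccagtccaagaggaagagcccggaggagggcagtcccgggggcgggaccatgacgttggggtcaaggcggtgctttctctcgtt
Bnip3, chr7:138909507-138909756, minus strand: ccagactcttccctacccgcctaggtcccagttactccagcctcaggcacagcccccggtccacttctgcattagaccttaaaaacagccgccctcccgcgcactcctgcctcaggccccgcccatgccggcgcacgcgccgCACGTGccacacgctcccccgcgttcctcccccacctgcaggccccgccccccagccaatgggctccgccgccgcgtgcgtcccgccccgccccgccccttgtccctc
Ldhb, chr6:142507958-142508207, minus strand: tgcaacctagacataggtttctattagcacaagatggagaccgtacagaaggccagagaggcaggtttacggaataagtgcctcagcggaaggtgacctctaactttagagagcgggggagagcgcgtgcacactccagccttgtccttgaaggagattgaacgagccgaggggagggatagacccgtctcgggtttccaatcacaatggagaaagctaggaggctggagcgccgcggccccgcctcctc

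The 250 bases held ACGTG once in Egln3, 2 times each in Slc16a3, Pgk1 and Bnip3, 5 times in the Ldha stretch shown and not at all in Ldhb. A second RefSeq start of Ldha had no ACGTG, and the Ldhb stretch and that second stretch each held the other form of the core, GCGTG, once. A CACGTG, which is the same on both strands, counts as 2 overlapping matches, and it accounts for both matches in Bnip3 and for 4 of the 5 in Ldha. RefSeq gave 53 such stretches for 37 of the 40 members; Bnip3l, Epas1 and Ndrg1 were not matched. ACGTG stood in 45.3% of the member stretches, in 31.0% of the 29 stretches of glycolytic enzymes and in 60.0% of the 15 stretches of HIF targets and oxygen sensors, against 17.8% of the 21263 stretches of protein-coding genes and 16.6% of all 32851. GCGTG stood in 56.6% of member stretches, against 33.8% of the stretches of protein-coding genes. These shares are over stretches, not genes. Stretches of the same gene can overlap and share a match, as 2 stretches of Aldoa did for ACGTG. Matches did not follow the spread between libraries gene by gene. Adm, Pdk1, Aldoc and Pfkl varied and had GCGTG but no ACGTG in their stretches, and Tpi1 and Eno2 varied and had neither. The steady genes Hif1a and Pfkm had ACGTG, Pfkm at 2 of 4 starts. It also stood in stretches of Hk2, Pgam1 and Pkm, which varied less than the genes without it named here.

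Total counts were 17819285 to 48679134 per library in the mutants and 17799899 to 19032389 in the controls. Myrf, the targeted gene, had 92.4, 84.4, 85.3 and 91.6 CPM (counts scaled to a common library total) in mutant replicates 1 to 4, against 113.6, 115.5, 106.9 and 120.5 CPM in control replicates 1 to 4. The groups did not overlap, and the log2 fold change of mutant over control was -0.37 (SE 0.044, adjusted p = 0.000211, edgeR quasi-likelihood test). Summed over 11 mesothelium markers, of which 4 were called lower, the level was 263.5 to 304.4 CPM in mutant and 337.6 to 361.7 CPM in control lungs. Sums for endothelium (7 markers, 925.7 to 961.6 CPM in mutant and 855.8 to 919.4 CPM in control lungs), macrophages (6 markers, 100.1 to 103.0 and 105.9 to 111.1 CPM) and nerve (7 markers, 40.8 to 48.0 and 33.7 to 38.6 CPM) also did not overlap. The gap between the ranges of these last 3 sums depended on single markers. The ranges overlapped without Egfl7 for endothelium, without Mrc1 or C1qb for macrophages and without Ret for nerve. All 7 endothelial markers had positive log2 fold changes, and 1, Emcn, was called higher. Of the 7 nerve markers 5 were positive and 2 negative, and 1, Ret, was called higher. Of the 6 macrophage markers 3 were positive and 3 negative, and 1, Mrc1, was called lower. Of the defining markers in all lists only Matn1 of cartilage lay under 0.2 CPM in every library. Hba-a2 of red blood cells and Ckm of muscle did so in some libraries. In this lung RNA, fewer cells of a type and less RNA per cell cannot be told apart. Control replicates 2 and 3 had almost no counts of 4 Y-linked genes (Ddx3y, Eif2s3y, Kdm5d and Uty), at -5.76 and -5.60 on a centred log2 scale, while the other 6 libraries lay between 1.44 and 2.60.

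None of the 40 genes passed the test between mutant and control lung. All 40 passed the filter on low counts, and 0 were called higher and 0 lower (edgeR quasi-likelihood test, Benjamini-Hochberg adjusted p below 0.05 over 15788 genes), where 1.49% of all genes tested were called, 0.564% higher and 0.931% lower. DESeq2 and limma-voom also called 0 of them. At an unadjusted p below 0.05 there were 3 members in edgeR, namely Pdk3 higher and Eno1 and Ndrg1 lower, 3 of 40 against 13.9% of all genes. Mutant and control libraries did not overlap for 1 member, Pdk3, against 7.37% of all genes tested.

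The enzymes and the HIF targets lay on opposite sides of 0, both close to it. Of the 18 enzymes, 16 had a negative log2 fold change and the median was -0.05, with values from -0.26 to 0.15. Of the 14 HIF targets and oxygen sensors, 9 had a positive one and the median was 0.03, with values from -0.29 to 0.17. Over all genes tested 50.03% were positive and the median was 6.5e-05. The difference between the medians was not tested, and their signs rested on few libraries. With the level of the Y-linked genes as a covariate, 9 of 18 enzymes and 10 of 14 HIF targets and sensors were positive, with medians of 0.005 and 0.08, and without control replicates 2 and 3 the counts were 10 of 18 and 10 of 14. Leaving out control replicate 2, mutant replicate 3 or mutant replicate 4 alone gave 6 of 18 positive enzymes each, and the median of the HIF targets and sensors was -0.02 without mutant replicate 2.

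**Figure D1:**
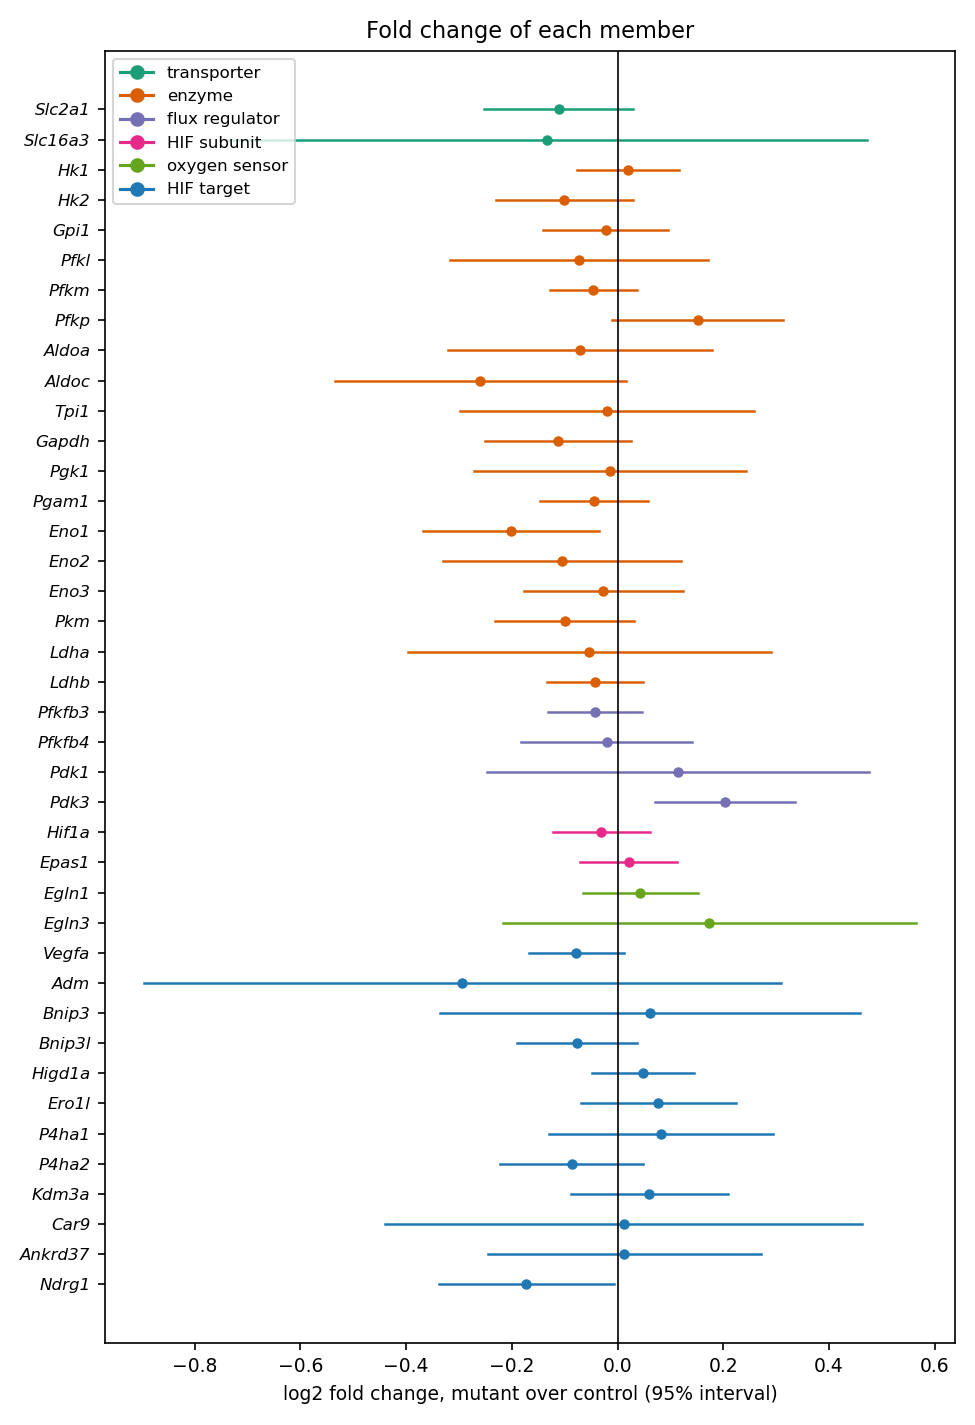
Log2 fold change of mutant over control for each of the 40 genes, by role, as points with 95% intervals (4 libraries a group). Most enzymes lie just left of 0; the intervals of Pdk3, Eno1 and Ndrg1 exclude 0 before adjustment.

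Slc2a1 and Slc16a3 carry fuel in and out: Slc2a1 is the glucose transporter GLUT1, and Slc16a3 the lactate exporter MCT4, a known HIF target. Slc2a1 had 105.5, 105.9, 94.4 and 88.3 CPM in mutant replicates 1 to 4, against 103.2, 118.3, 104.7 and 101.0 CPM in control replicates 1 to 4. The groups overlapped, with the lowest values in mutant replicates 3 and 4 (log2 fold change -0.11, SE 0.065, adjusted p = 0.493). Slc16a3 had 46.9, 54.6, 35.9 and 34.1 CPM in mutants and 35.0, 65.0, 50.6 and 40.9 CPM in controls, so that its highest library, control replicate 2, held 1.91 times its lowest, mutant replicate 4. The log2 fold change of Slc16a3 was -0.13 with a 95% interval of -0.74 to 0.47 (adjusted p = 0.873), which leaves the fold anywhere between 0.599 and 1.39. Slc16a3 (ENSMUSG00000025161.16) spans bases 120948480 to 120960868 of chromosome 11 (GRCm38, plus strand).

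The enzyme transcripts were abundant. Per kilobase of exon, Gapdh, the dehydrogenase whose step yields NADH, stood first with 315 ± 30.6 CPM per kb in mutant and 340.3 ± 7.86 CPM per kb in control lungs (SD, n = 4 each). Pkm, the pyruvate kinase gene, followed with 297 and 319 CPM per kb, then Ldha with 234 and 243. Tpi1 (171 and 173), Aldoa (151 and 158), Eno1 (150 and 173) and Pgk1 (105 and 107 CPM per kb) came next, all mutant before control. Summed over the 18 enzymes the libraries held 6653 ± 528 CPM in mutant and 7084 ± 482 CPM in control lungs, in ranges that overlapped (6180 to 7162 CPM and 6699 to 7726 CPM). Exon length here is the union of all annotated exons, which lowers the value of genes with long rare exons such as Pfkp. Same-strand gene models overlap 15.3% of the exon bases of Pkm (Gm49759) and 10.2% of those of Pfkm (Gm26513), where reads were not counted for either gene, so the order of Gapdh and Pkm is uncertain.

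Gapdh had 1427, 1273, 1137 and 1366 CPM in mutant replicates 1 to 4, against 1402, 1452, 1375 and 1397 CPM in control replicates 1 to 4. The controls lay close together and 3 of the 4 mutants lay below them all, with mutant replicate 3 lowest (log2 fold change -0.11, SE 0.061, adjusted p = 0.467). Transcripts of 79 other genes, 76 of them pseudogenes, held stretches of at least 150 bases at 95% identity or more with Gapdh, and their counts came to 10.4% of its own. Reads that fit several places were not counted, and with its copies added the log2 ratio of the group means of Gapdh was -0.09, against -0.10 without them. Pkm had 1577, 1594, 1389 and 1388 CPM in mutants and 1550, 1738, 1572 and 1516 CPM in controls, with mutant replicates 3 and 4 lowest (log2 fold change -0.10, SE 0.059, adjusted p = 0.507).

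Eno1, the main enolase, came nearest to a change among the enzymes. It had 811.5, 868.4, 795.2 and 752.9 CPM in mutant replicates 1 to 4, against 846.3, 1015, 998.9 and 852.5 CPM in control replicates 1 to 4. Mutant replicate 2 lay above control replicates 1 and 4, and the other mutants lay below every control. The log2 fold change was -0.20 (SE 0.073), with an unadjusted p of 0.0233 and an adjusted p of 0.261 (edgeR), and it was called with the replicate number as a block (adjusted p = 0.0106) and with no low-count filter (adjusted p = 0.000337). It was -0.07 with the Y-linked level as a covariate. Eno1 (ENSMUSG00000063524.13) spans bases 150236721 to 150248879 of chromosome 4 (plus strand).

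Eno1 has a near-identical copy, Eno1b on chromosome 18, counted apart from it. Eno1b had 149.1, 151.5, 91.6 and 92.5 CPM in mutants and 106.7, 126.1, 77.3 and 110.3 CPM in controls (log2 fold change 0.22, SE 0.247, adjusted p = 0.777). Both genes were higher in mutant replicates 1 and 2 than in 3 and 4 and highest in replicate 2 of each group, but in control replicate 3 Eno1 was high and Eno1b at its lowest. The counts of all 3 near-identical genes came to 23.7% of those of Eno1, and the log2 ratio of the group means was -0.11 for Eno1 with its copies and -0.19 for Eno1 alone. Reads shared by Eno1 and Eno1b were not counted, so the size of the Eno1 difference is uncertain.

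The remaining enzymes are given in the order of the pathway, each as CPM in mutant and then control lungs. Hk1 and Hk2, the hexokinases that trap glucose, had 59.8 and 59.0 CPM (log2 fold change 0.02) and 57.0 and 61.1 CPM (-0.10). Gpi1, the isomerase that follows, had 353.8 and 359.7 CPM (-0.02). The phosphofructokinases, which commit sugar to the pathway, had 285.5 and 300.8 CPM for Pfkl (-0.07), 77.0 and 79.4 CPM for Pfkm (-0.05) and 23.2 and 20.9 CPM for Pfkp (0.15, unadjusted p = 0.0638). None of the 6 passed, with adjusted p between 0.393 and 0.901.

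The aldolases, which cut the sugar into 2 parts of 3 carbons, had 438.7 and 461.3 CPM for Aldoa (-0.07) and 4.18 and 5.07 CPM for Aldoc (-0.26, unadjusted p = 0.0636). A second, shorter row under the symbol Aldoa, not counted as a member, had 4.77 and 5.16 CPM. Tpi1, which interconverts the 2 parts, had 470.5 and 477.4 CPM (-0.02), Pgk1, an X-linked kinase that makes ATP, 236.6 and 239.5 CPM (-0.01), and the mutase Pgam1 141.7 and 146.5 CPM (-0.04). The minor enolases Eno2 and Eno3 had 9.85 and 10.7 CPM (-0.10) and 17.2 and 17.6 CPM (-0.03). Ldha and Ldhb, the subunits of lactate dehydrogenase, had 774.8 and 804.4 CPM (-0.05) and 108.4 and 111.9 CPM (-0.04). The adjusted p of these genes lay between 0.393 and 0.971.

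Where a step has several isozymes, the same one led in both groups by level per union exon length. Per length, Hk2 made up 57.6 ± 1.97% of the hexokinase level in mutant and 59.7 ± 2.32% in control lungs (SD, n = 4 each). The lead of Hk2 depends on that length, 8532 bases for Hk1 and 5969 for Hk2. Their longest protein-coding transcripts have 4278 and 5513 bases, and their CPM were close. Which hexokinase led is therefore uncertain. Pfkl made up 63.2 ± 2.56% and 63.9 ± 2.70% of phosphofructokinase, with Pfkm at 34.2 ± 2.59% and 33.9 ± 2.64% and Pfkp at 2.56 ± 0.164% and 2.22 ± 0.184%. Aldoa made up 99.2 ± 0.0672% and 99.0 ± 0.144% of the 2 aldolases, and Ldha 77.0 ± 2.12% and 77.2 ± 2.34% of lactate dehydrogenase. Eno1 made up 92.6 ± 0.306% and 93.3 ± 0.461% of enolase. The ranges of the groups overlapped for every isozyme, and these shares were not tested.

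**Figure D2:**
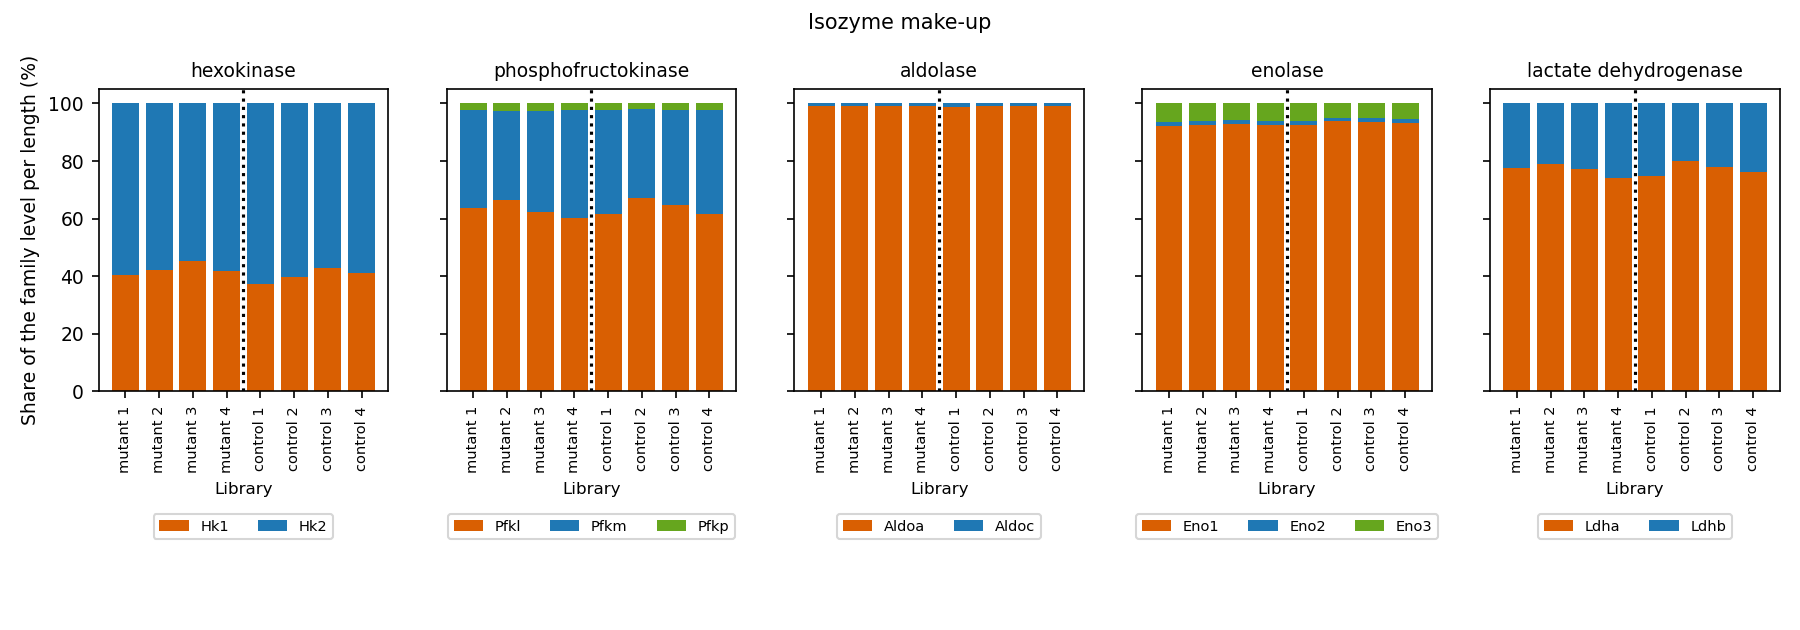
Share of each isozyme in its family's level per length (%), as stacked bars for mutant libraries left of the dotted line and control libraries right of it. Pfkl, Aldoa, Eno1 and Ldha make up most of their families in all 8 libraries. Hk2 makes up 54.9% to 62.6% of hexokinase, a share that depends on the union exon length used.

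Among the flux regulators, Pdk3 was the 1 gene whose groups did not overlap. Pdk3 encodes a kinase that switches off pyruvate dehydrogenase and so keeps pyruvate out of the mitochondrion. It had 47.1, 46.1, 42.3 and 43.2 CPM in mutant replicates 1 to 4, against 41.6, 33.9, 37.9 and 42.2 CPM in control replicates 1 to 4. Mutant replicate 3 lay just above control replicate 4, and the low controls were replicates 2 and 3, those without Y-linked counts. The log2 fold change was 0.20 (SE 0.063, 95% interval 0.07 to 0.34), with an unadjusted p of 0.00474 and an adjusted p of 0.118 (edgeR). It was 0.10 without control replicates 2 and 3 (adjusted p = 0.633) and 0.08 with the Y-linked level as a covariate (adjusted p = 0.742), and with no low-count filter it was called at 0.22 (adjusted p = 0.0051). Pdk3 (ENSMUSG00000035232.8) is X-linked and spans bases 93764607 to 93832201 of chromosome X (minus strand).

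Pdk1, the related kinase that HIF induces, had 46.4, 52.7, 40.2 and 35.7 CPM in mutants and 35.9, 46.1, 45.8 and 35.9 CPM in controls. The groups overlapped throughout, with mutant replicate 2 highest and mutant replicate 4 lowest (log2 fold change 0.11, SE 0.152, adjusted p = 0.812). Pfkfb3, whose product makes the activator of phosphofructokinase, had 85.3, 79.3, 81.8 and 75.4 CPM in mutants and 83.7, 83.8, 83.9 and 80.3 CPM in controls (log2 fold change -0.04, SE 0.042, adjusted p = 0.726). Pfkfb4, a relative, had 13.2 ± 0.688 CPM in mutant and 13.4 ± 0.889 CPM in control lungs (log2 fold change -0.02).

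The HIF subunit genes varied little between libraries. Hif1a, the subunit found in most cells, had 113.5, 124.7, 123.7 and 117.3 CPM in mutants and 124.3, 125.2, 128.0 and 112.4 CPM in controls (log2 fold change -0.03, 95% interval -0.12 to 0.06, adjusted p = 0.819). Epas1, which encodes HIF-2-alpha and is prominent in endothelium, had 51.9, 53.3, 55.2 and 51.6 CPM in mutants and 53.3, 52.1, 53.8 and 49.8 CPM in controls (0.02, 95% interval -0.07 to 0.11, adjusted p = 0.885). Neither gene differed between libraries by more than 1.14 times. The gene model Gm49321 overlaps 2.51% of the Hif1a exon bases on the same strand, and reads there were likewise not counted.

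The oxygen sensors Egln1 and Egln3 encode prolyl hydroxylases of HIF, and Egln3 is itself induced by HIF. Egln1 had 86.1, 87.6, 82.5 and 74.9 CPM in mutants and 74.0, 84.7, 82.7 and 81.0 CPM in controls (log2 fold change 0.04, SE 0.052, adjusted p = 0.780). Egln3 had 28.6, 34.2, 27.3 and 22.9 CPM in mutants and 21.5, 31.1, 27.7 and 21.1 CPM in controls (0.17, SE 0.167, adjusted p = 0.728). The spread of Egln3 within each group was wider than the distance between them: replicate 2 was highest in both, and mutant replicate 4 lay beside control replicates 1 and 4. Egln3 (ENSMUSG00000035105.5) spans bases 54178981 to 54203860 of chromosome 12 (minus strand).

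Vegfa, the growth factor that draws blood vessels, was the most abundant of the 12 HIF targets per length, at 38.7 CPM per kb in mutant and 40.8 CPM per kb in control lungs. It had 168.3, 167.3, 167.2 and 160.1 CPM in mutants and 159.0, 186.1, 173.6 and 181.3 CPM in controls, where 3 controls lay above every mutant and control replicate 1 below them (log2 fold change -0.08, SE 0.043, adjusted p = 0.444). Bnip3l, a receptor that sends mitochondria to autophagy, had 103.8, 114.6, 116.9 and 102.6 CPM in mutants and 114.3, 113.0, 127.1 and 108.0 CPM in controls (-0.08, SE 0.054, adjusted p = 0.580). Its relative Bnip3 had 33.1, 39.6, 32.5 and 23.4 CPM in mutants and 27.5, 34.0, 35.1 and 28.4 CPM in controls (0.06, SE 0.168, adjusted p = 0.915). Bnip3 was highest in mutant replicate 2 and lowest in mutant replicate 4.

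Ndrg1, a gene induced by hypoxia and differentiation, was the HIF target nearest to a change. It had 10.7, 11.2, 11.8 and 10.7 CPM in mutants and 11.6, 12.3, 13.4 and 12.6 CPM in controls, where mutant replicate 3 lay above control replicate 1 and every other mutant lay below all controls. The log2 fold change was -0.17 (SE 0.078, unadjusted p = 0.0414, adjusted p = 0.335). Values of Eno1, Eno1b, Ndrg1, Pdk1, Bnip3 and Ldha in every library were chosen for display after they had been seen.

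The other HIF targets with positive log2 fold changes were P4ha1, a subunit of the collagen prolyl hydroxylase (90.1 CPM in mutant and 85.4 CPM in control lungs, 0.08), and Ero1l, an oxidase of the endoplasmic reticulum (27.1 and 25.9 CPM, 0.08). They also included the histone demethylase Kdm3a (81.9 and 78.8 CPM, 0.06), the mitochondrial protein gene Higd1a (43.1 and 41.8 CPM, 0.05), Ankrd37 (7.45 and 7.43 CPM, 0.01) and Car9, a carbonic anhydrase (1.76 and 1.76 CPM, 0.01). Negative values were those of P4ha2, another collagen hydroxylase subunit (27.2 CPM in mutant and 29.0 CPM in control lungs, -0.09), and Adm, which encodes the vessel peptide adrenomedullin (0.897 and 1.16 CPM, -0.29). Adm was the lowest member, and its 95% interval ran from 0.537-fold to 1.24-fold. None of these 8 genes passed, with adjusted p from 0.609 to 0.987.

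**Figure D3:**
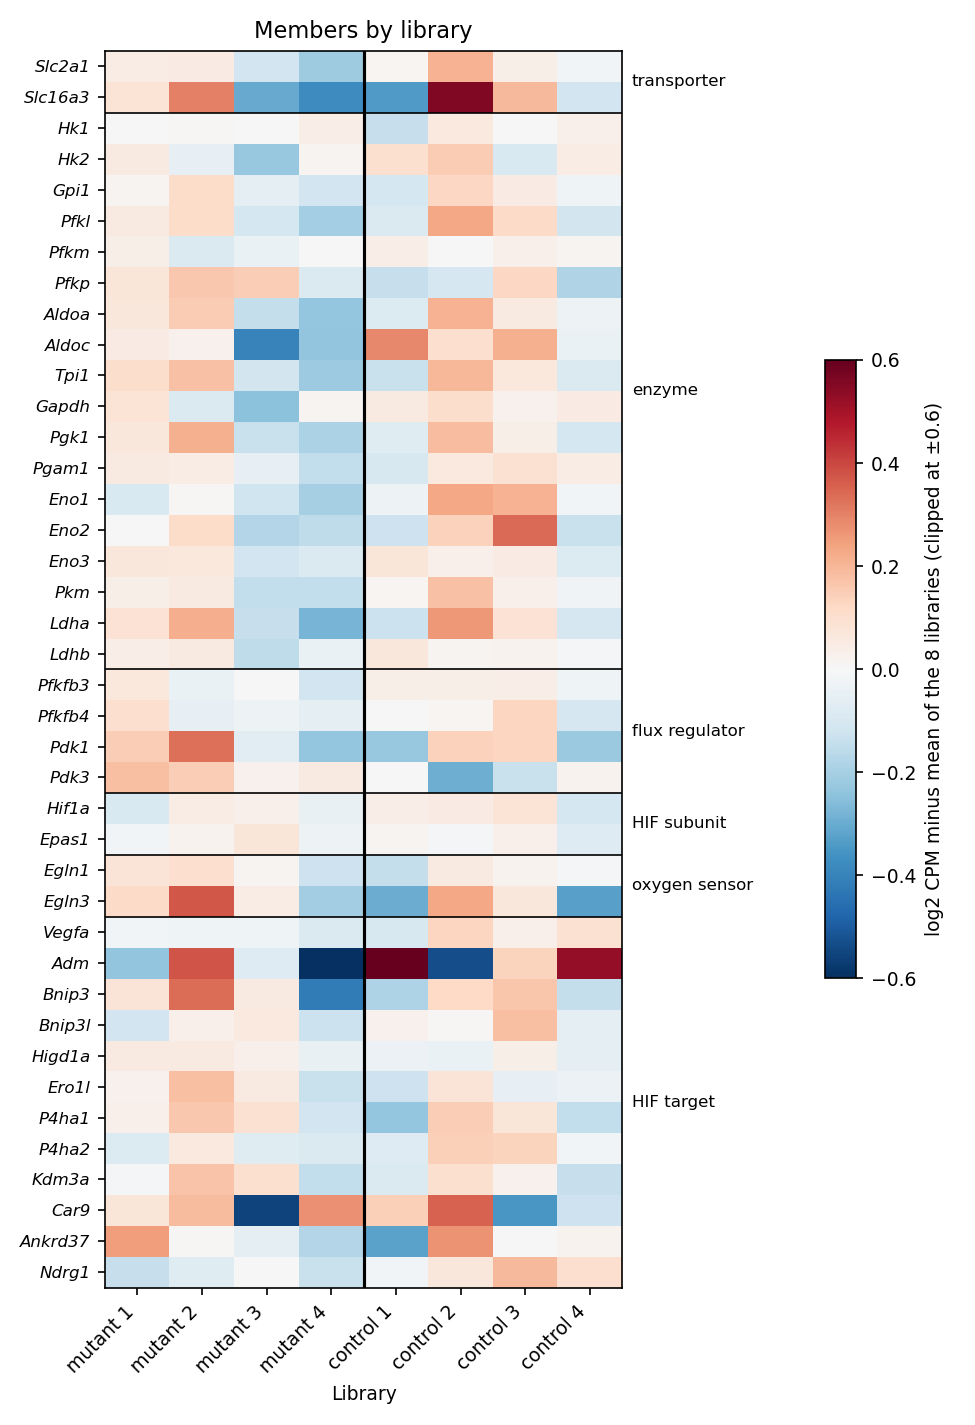
Log2 CPM of each of the 40 genes in each library, as the difference from the gene's mean over the 8 libraries (red higher, blue lower, clipped at 0.6), with mutants left of the line and controls right of it. Colour changes more from library to library within a group than between the groups, most of all for Adm, Slc16a3, Car9, Egln3 and Bnip3.

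The larger differences were between libraries of the same group. The SD of log2 CPM within groups had a median of 0.114 over the members, against 0.0972 over all genes tested and 0.0543 over the 3947 genes in the highest level class. It was at least 0.15 in 15 members: Adm (0.457), Slc16a3 (0.356), Car9 (0.325), Egln3 (0.257), Bnip3 (0.256), Pdk1 (0.225), Ankrd37 (0.212), Ldha (0.203), Eno2, Aldoc, Tpi1, Pgk1, Aldoa, Pfkl and P4ha1. Adm and Car9 had few counts, but Ldha and Tpi1 were among the most abundant transcripts. The steadiest members were Pfkm (0.0391), Higd1a (0.043) and Epas1 (0.0469).

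Many enzymes were high or low in the same libraries. Above their own group's mean lay 16, 15, 1 and 4 of the 18 enzymes in mutant replicates 1 to 4, and 5, 14, 14 and 2 of them in control replicates 1 to 4, while between 49.8% and 51.6% of all genes did so in any library. Of the 14 HIF targets and oxygen sensors, 7, 14, 9 and 1 lay above it in mutant replicates 1 to 4, and 2, 10, 10 and 5 in control replicates 1 to 4. Enzymes and HIF targets thus shared high values in mutant replicate 2 and control replicates 2 and 3 and low values in mutant replicate 4 and control replicates 1 and 4, and they parted in mutant replicates 1 and 3. In mutant replicate 1 it was 16 of 18 enzymes but 7 of 14 HIF targets and sensors, and in mutant replicate 3 it was 1 of 18 enzymes but 9 of 14, where the mean deviation was -0.09 for the enzymes and -0.01 for the HIF targets and sensors on the log2 scale. The genes of a library share its RNA, so these counts describe 8 libraries, and no test was made of them.

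Ldha shows the pattern. It had 832.2, 910.0, 711.5 and 645.3 CPM in mutant replicates 1 to 4, against 715.5, 939.2, 831.5 and 731.2 CPM in control replicates 1 to 4. Its highest value in either group was in replicate 2, its group means were 774.8 ± 119 CPM in mutant and 804.4 ± 104 CPM in control lungs, and the log2 fold change was -0.05 with a 95% interval of -0.40 to 0.29. Ldha (ENSMUSG00000063229.15) spans bases 46841475 to 46855627 of chromosome 7 (plus strand). The controls with high values, replicates 2 and 3, were those without Y-linked counts, and with that level as a covariate Ldha, Slc16a3 and 9 other members turned to the opposite sign, 0 of them called. Mutant replicate 2, also high, had the highest Y-linked level of all 8 libraries (2.60), and the part of that level in the pattern was not tested.

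**Figure D4:**
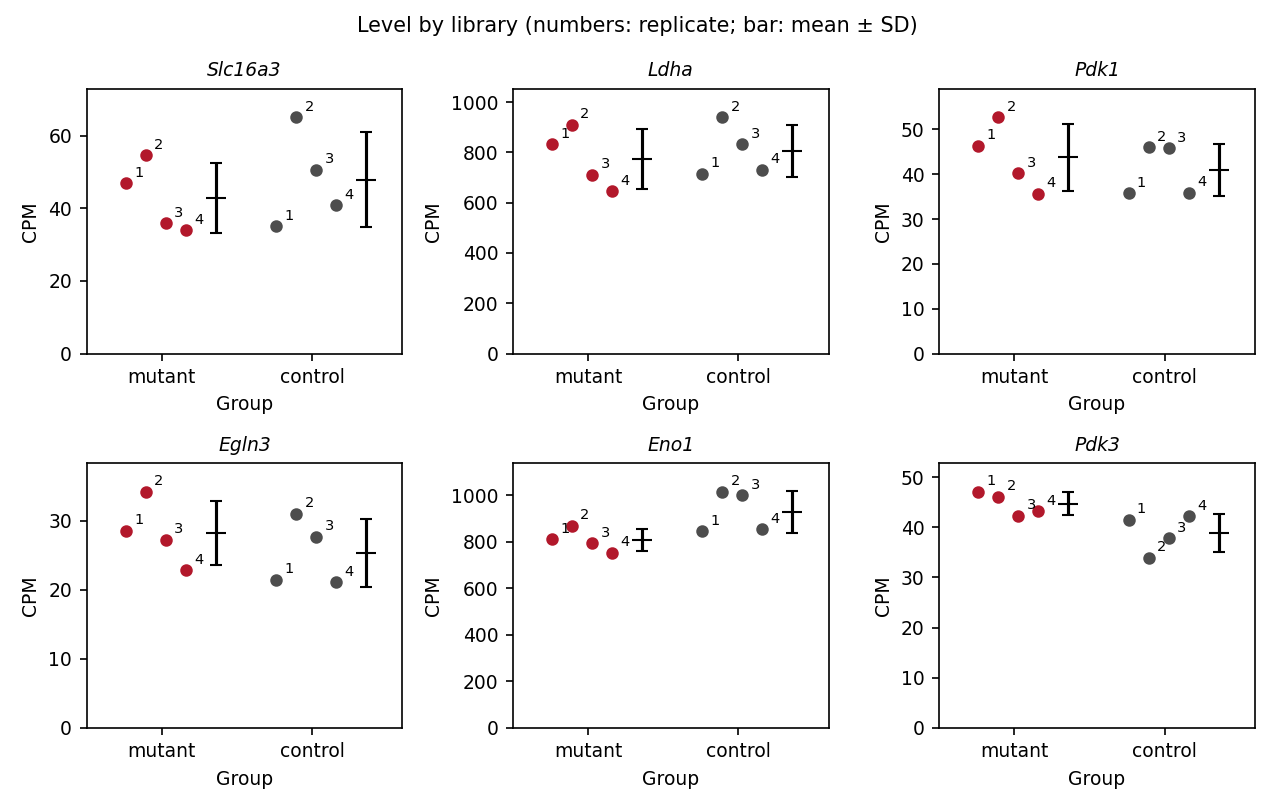
CPM of 6 genes in each library, with mutants left and controls right, replicate numbers beside the points and the mean ± SD as bars (n = 4 each). Slc16a3, Ldha, Pdk1 and Egln3 are highest in replicate 2 of each group and overlap between groups; Eno1 overlaps in part and Pdk3 not at all.

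Among further genes of these pathways 1 gene was called, where 1.49% of all genes tested were called. Of 38 further HIF targets 37 were tested, and 1 was called higher and 0 lower in edgeR: Angptl4, a secreted inhibitor of lipoprotein lipase. Angptl4 had 36.9, 36.7, 44.5 and 35.1 CPM in mutant replicates 1 to 4, against 24.3, 29.0, 28.5 and 29.3 CPM in control replicates 1 to 4, without overlap (log2 fold change 0.46, SE 0.076, adjusted p = 0.00632). It was called in 16 of 17 other settings and not without control replicates 2 and 3 (0.51, adjusted p = 0.0668). Angptl4 spans bases 33773750 to 33781830 of chromosome 17 (minus strand). Over these 37 targets the median was 0.02, and 19 were positive.

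The vessel factor Angpt2 had 6.31, 6.27, 6.30 and 6.42 CPM in mutants and 4.38, 5.02, 5.25 and 4.62 CPM in controls, without overlap (log2 fold change 0.39, SE 0.106, adjusted p = 0.0695). The transferrin receptor Tfrc had 86.5, 95.5, 96.9 and 85.0 CPM in mutants and 103.5, 118.4, 117.5 and 97.7 CPM in controls, also without overlap (-0.26, SE 0.066, adjusted p = 0.0746). Tfrc was called in 4 of 17 other settings, among them DESeq2 (adjusted p = 0.00978), but stood at -0.13 with the Y-linked level as a covariate (adjusted p = 0.404) and at -0.14 without control replicates 2 and 3 (adjusted p = 0.375). Angpt2 was called in 0 of 17. The summed endothelial markers lay higher in the mutants, as given above, and their part in the values of Angptl4 and Angpt2 was not tested.

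Of 37 further glycolysis genes 33 were tested and 0 were called in edgeR, DESeq2 or limma-voom. At an unadjusted p below 0.05 in edgeR there were 4 of 33, against 13.9% of all genes tested. Slc16a1, the lactate carrier MCT1, had 49.3, 53.0, 48.6 and 48.8 CPM in mutants and 54.3, 58.2, 53.6 and 57.1 CPM in controls, without overlap (log2 fold change -0.16, SE 0.046, adjusted p = 0.1002), and it was called with the replicate block (adjusted p = 0.0404). Mpc2, a subunit of the carrier that takes pyruvate into the mitochondrion, had 25.5, 26.2, 25.7 and 22.9 CPM in mutants and 17.2, 19.5, 21.9 and 24.2 CPM in controls (0.28, SE 0.087, adjusted p = 0.121). Mutant replicate 4 lay below control replicate 4, and the other mutants lay above every control. Mpc2 was called in 2 of 17 other settings, with no low-count filter (adjusted p = 0.00274) and without control replicate 4 (adjusted p = 0.0260).

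Of 17 regulators of HIF 0 were called in edgeR, DESeq2 or limma-voom. At an unadjusted p below 0.05 in edgeR there was 1, against 13.9% of all genes tested: Commd1 (log2 fold change 0.14, SE 0.066, adjusted p = 0.346). Egln2, the third prolyl hydroxylase, came next at -0.09 (SE 0.043, adjusted p = 0.361). Of 28 genes of oxidative phosphorylation 0 were called in edgeR, DESeq2 or limma-voom. At an unadjusted p below 0.05 in edgeR there were 3 of 28, against the same 13.9%. The smallest p among them were those of Sdhc of complex II (-0.09, SE 0.038, adjusted p = 0.270) and Ndufa1 of complex I (-0.14, SE 0.062, adjusted p = 0.332). With no low-count filter 1 was called higher, Cox6a1 of complex IV.

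The further HIF targets were high and low in much the same libraries as the HIF targets and sensors among the members, and differed from the enzymes in mutant replicates 1 and 3. Of these 37 genes, 19, 27, 21 and 11 lay above their own group's mean in mutant replicates 1 to 4, and 10, 29, 23 and 13 in control replicates 1 to 4. By these counts, oxidative phosphorylation genes ranked the mutants as the enzymes did and the controls otherwise, with 21, 18, 2 and 13 of 28 above it in mutants and 20, 6, 14 and 16 in controls. They were thus low in control replicate 2, where the enzymes were high.

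**Figure D5:**
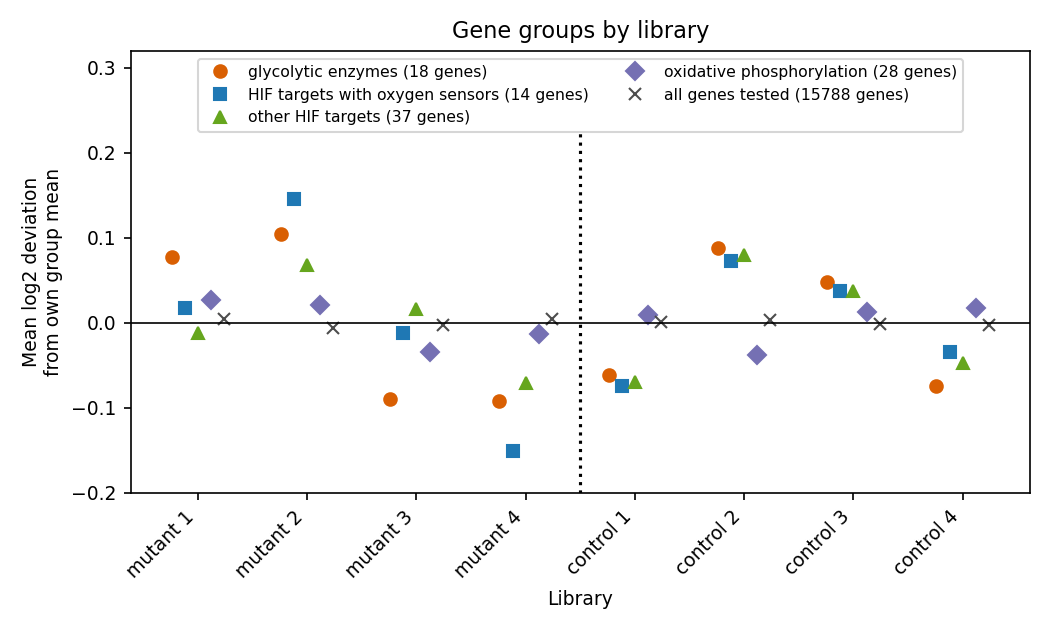
Mean log2 deviation of each gene group from its own group's mean, by library, with mutants left of the dotted line and controls right of it. Enzymes lie between -0.09 and 0.10, HIF targets with oxygen sensors between -0.15 and 0.15, and all genes tested near 0 in each library.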

How the data were processed

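The values deposited by the authors are raw counts per gene, not normalized, in 1 table. Per the file headers, they were made with featureCounts 1.6.4 in paired mode with strand option 2, over exons of GENCODE vM25, without the options that keep reads of several places or several genes. The genome build GRCm38 (mm10), STAR (version not given in the sources used here) and DESeq2 are named in the submitters' processing notes. The deposited table's exon length was used only for levels per kilobase.

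All 8 libraries entered 1 fit in edgeR 4.0.16 (R 4.3.3): expression filter (15788 genes left), TMM scaling, robust dispersions, two-sided quasi-likelihood F test, no covariate, Benjamini-Hochberg adjustment, threshold 0.05. Fold changes are mutant over control. A floor of 3 counts is 0.0616 to 0.169 CPM per library, for counting error only. On simulated counts for this comparison (3 simulations, 200 changed genes of 15788), 74.6% of genes changed 1.25-fold, 97.0% changed 1.5-fold and 99.0% changed 2-fold were recovered, and 5.09% of calls were false. The changed genes were drawn only from those above a minimum mean level, which Adm, Car9 and Aldoc did not reach. The recovered shares therefore do not cover genes of such low level. They are also averages over genes of differing spread. They were not computed for members as variable as Slc16a3 (SE 0.249), Egln3 (SE 0.167) and Ldha (SE 0.142). DESeq2 1.42.0, limma 3.58.1 and other settings served as alternatives.

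The members and the lists were chosen with earlier results of these data known. Members not overlapping between groups, and the 2 highest per length of each role, were given by library; of the other lists, the called genes or else the 2 with the smallest p. Angpt2 and Tfrc were added after their values were seen. Same-numbered libraries did not deviate together throughout, so the numbers were not taken as pairs. Libraries of a group differed by 2.92 to 8.45 times the sampling variance, so none was another library sequenced again. Whether any shared RNA or embryos cannot be told from this.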

Additional observations from a re-analysis of the deposited data

Results flagged for a closer look

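In 3 of 80 sets of 4 libraries (each of the 40 genes in each group), 1 library lay far from the other 3, by most of the whole range of its group; chance alone gives about 1 in 20 such sets. P4ha2 was high in mutant replicate 2, at 29.3 CPM, against 26.5 to 26.7 CPM in the other mutants. Vegfa was low in mutant replicate 4, at 160.1 CPM, against 167.2 to 168.3 CPM in the other mutants. Pfkfb3 was low in control replicate 4, at 80.3 CPM, against 83.7 to 83.9 CPM in the other controls.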

How the results depend on the processing

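Calls and signs of the members were followed through 17 other settings. With DESeq2, limma-voom, other scalings or dispersions not estimated robustly, 0 members were called and 0 of 40 turned to the opposite sign. With no low-count filter 1 member was higher (Pdk3) and 1 lower (Eno1), and Pgk1 turned to 0.00103. The replicate block made 1 member lower, Eno1 (adjusted p = 0.0106), turned Car9 to -0.0149 and called 541 genes in all. At an unadjusted p below 0.05 (edgeR) there were 11 of 40 members with this block, against 3 in the main fit. They were Slc2a1, Hk2, Pfkp, Aldoc, Gapdh, Eno1, Pkm, Pdk3, Egln3, Bnip3l and Ndrg1. With no low-count filter there were 6. The share of all genes at that level is not given for these settings, so these counts are not a result about the members. The numbers are not known to pair the libraries: same-numbered mutant and control libraries correlated at 0.0811, 0.0648, 0.181 and 0.0125. Mutant replicates 2 and 3 correlated best with the control of their own number. Mutant replicate 1 correlated best with control replicate 4, and mutant replicate 4 with control replicate 1.

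With the Y-linked level as a covariate 11 members turned, to 0.189 (Slc16a3), 0.096 (Tpi1), 0.088 (Eno2), 0.0861 (Ldha), 0.0755 (Pgk1), 0.0634 (Pfkl), 0.051 (Gpi1), 0.0412 (Pfkfb4), 0.0222 (Hif1a), 0.0123 (Aldoa) and 0.0111 (P4ha2). Without control replicates 2 and 3, a setting added after the data were seen, 12 turned, to 0.2001 (Slc16a3), 0.11 (Tpi1), 0.102 (Ldha), 0.092 (Eno2), 0.091 (Pgk1), 0.0705 (Pfkl), 0.0577 (Gpi1), 0.043 (Pfkfb4), 0.0279 (Aldoa), 0.0198 (Hif1a), 0.0102 (P4ha2) and 0.00614 (Pgam1), and Angptl4 lost its call. In both settings 0 members were called, with 4 (Pfkp, Egln3, Adm, P4ha1) and 3 (Pfkp, Egln3, P4ha1) at an unadjusted p below 0.05. The share of all genes at that level is not given for either setting.

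Leaving out 1 library at a time, 0 members were called, and the median ranged from -0.091 to -0.0147 for the enzymes and from -0.0216 (without mutant replicate 2) to 0.0853 (without control replicate 2) for the HIF targets with oxygen sensors. Members that turned in at least 1 such fit ranged from -0.0217 to 0.0441 (Hk1), -0.0834 to 0.112 (Ankrd37), -0.28 to 0.0483 (Slc16a3), -0.0599 to 0.0169 (Gpi1), -0.0792 to 0.0472 (Tpi1), -0.0889 to 0.0469 (Pgk1), -0.134 to 0.0298 (Ldha), -0.0564 to 0.023 (Pfkfb4), -0.0905 to 0.153 (Car9), -0.000839 to 0.0368 (Epas1), -0.0591 to 0.175 (Bnip3), -0.0588 to 0.0112 (Eno3) and -0.0641 to 0.00227 (Ldhb). Of all genes, 236 were called, against 791 with no low-count filter, 142 with dispersions not robust, 97 with the Y-linked level, 49 without control replicates 2 and 3, and 96 to 479 without 1 library (100, 121 and 96 without control replicates 1, 2 and 3, 118 and 479 without mutant replicates 2 and 4). The cause was not tested. At 4 libraries a group, changes within the intervals of Adm, Slc16a3 and Egln3 were not detectable.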
